A study of Homo sapiens with 12 samples.

Results

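The genes described are 10 core components of the Notch pathway: the receptors NOTCH1, NOTCH2, NOTCH3 and NOTCH4, the ligands JAG1, JAG2 and DLL1, and the target genes HES1, HEY1 and HEYL. They were taken by symbol from a table of RNA-seq read counts for 56269 genes, and 8 of the 10 passed the filter on low counts that left 16069 genes for testing. DLL1 and HEYL did not pass it and are given as counts only. The RNA came from HEYA8, an established human ovarian cancer cell line, grown in RPMI medium with fetal bovine serum, under conditions that the labels call resting state and the study describes as steady-state growth. The 12 libraries fall into 4 groups of 3: cells with the control vector, cells expressing ∆GAG-BG, cells expressing S534A (CS-BG) and cells expressing S545A (HS-BG). BG is betaglycan, the type III TGF-β receptor encoded by TGFBR3, and ∆GAG-BG lacks its glycosaminoglycan chains. In S534A and S545A one of the serines that carry such a chain is replaced by alanine, and the labels class the first as the chondroitin sulfate form and the second as the heparan sulfate form. All constructs were delivered by lentivirus with a dTomato reporter and infected cells were sorted by dTomato, so each group was 1 sorted population of 1 line, on top of the cells' own betaglycan. Cells expressing full-length betaglycan were not analysed here. The comparisons ask whether the form of betaglycan goes with a difference in Notch gene expression.

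Notch receptors are single-pass membrane proteins that are activated by ligands of the Jagged and Delta-like families on a neighbouring cell. Ligand binding allows an ADAM protease and then γ-secretase to cut the receptor, and the freed intracellular domain enters the nucleus, where it joins the DNA-binding protein RBPJ and a Mastermind co-activator. HES and HEY genes, which encode basic helix-loop-helix repressors, are common targets of that complex, and HES1 can bind its own promoter at N-box motifs. In ovarian carcinoma the pathway is best known for gain of NOTCH3. NOTCH4 and DLL4 are mainly known from endothelial cells.

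Of the 8 members tested, none differed at an adjusted p under 0.05 in any of the 6 pairwise comparisons (edgeR quasi-likelihood test, Benjamini-Hochberg over all 16069 genes), and 0 of 8 had an unadjusted p under 0.05. The count of all genes called was also 0 (0%) in each comparison. What the libraries did show was a fixed order of levels, with NOTCH2 and NOTCH1 far above the other receptors, and differences among libraries of one group that were as large as those between groups. In bulk RNA, fewer cells that express a gene and less of its RNA per cell cannot be told apart. Within groups, NOTCH3, HES1 and JAG1 varied most, and NOTCH3 and NOTCH4 are described together because their extremes fell in the same libraries.

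Several properties of the libraries bear on every comparison. Total counts ran from 16410001 to 29504297, so that 3 counts correspond to 0.10 to 0.182 CPM, the count scaled to library size (here with TMM factors). TGFBR3 was at 413 to 476 CPM in S534A and 520 to 574 CPM in S545A. In the libraries labelled ∆GAG-BG it was 259 CPM in library 1 and 20.3 and 21.4 CPM in libraries 2 and 3, and in those labelled control vector it was 15.9 CPM in library 1 and 259 CPM in libraries 2 and 3. TGFBR3 therefore went against these labels, which were used as given, and each fold change involving either group is a difference between libraries labelled so. A list of 10 genes induced by stress of the endoplasmic reticulum averaged 8.58 on the log2(CPM + 1) scale in ∆GAG-BG library 1 and 5.10 in S534A library 2, against 5.94 to 7.08 in the other libraries. In every group but S534A, the libraries numbered 2 and 3 were nearly alike (chi-square per degree of freedom 1.37 to 1.89, against 15.6 to 69.1 for other pairs of one group), and nothing in the labels says that libraries of one group came from separate cultures, so the p-values measure the spread between these libraries only.

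Markers of the labelled cell type were present in part. PAX8, a transcription factor of Müllerian epithelium, was at 193 to 295 CPM, and the keratin KRT7 was at 745 to 1139 CPM. MUC16 and CDH1 (E-cadherin) had 0 counts in every library, and the mesenchymal filament VIM was at 2341 to 3129 CPM. Since NOTCH4 is known from endothelium, endothelial markers were read beside it. VE-cadherin (CDH5) was at 168 to 431 CPM in all libraries, whereas PECAM1 was at 0.205 to 0.767 CPM and the leukocyte gene PTPRC had at most 2 counts.

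In the GRCh38 coordinates of the table, the receptors are NOTCH1 (chr9:136494444-136545862), NOTCH2 (chr1:119911553-120069626), NOTCH3 (chr19:15159038-15200981) and NOTCH4 (chr6:32194843-32224067), all on the minus strand. The ligands JAG1 (chr20:10637684-10674107), JAG2 (chr14:105140981-105168824) and DLL1 (chr6:170282206-170306565) are also on the minus strand. HES1 (chr3:194136145-194138732) is on the plus strand and HEYL (chr1:39624153-39639945) is on the minus strand. Counts were summed over all annotated exons of a gene, untranslated ones included, so a value does not separate transcripts.

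The promoters of HES1 and NOTCH3 are shown because these genes had the widest relative spread of the target genes and of the receptors, and because HES1 holds the letters bound by the Notch nuclear complex. RefSeq (GRCh38.p14) promoter entries were found for 8 of the 10 genes, and the 250 bases before each start were searched on both strands for the RBPJ core TGGGAA, for its extended form GTGGGAA, which contains the core, and for the N-box CACNAG. In the sequences below, written 5′ to 3′ on the strand of the gene, capitals mark TGGGAA or CACNAG on either strand. HES1 is given from -250 to -4 relative to its start (chr3:194135898-194136144, plus strand) and NOTCH3 from -250 to -1 (chr19:15200996-15201245, minus strand).
HES1: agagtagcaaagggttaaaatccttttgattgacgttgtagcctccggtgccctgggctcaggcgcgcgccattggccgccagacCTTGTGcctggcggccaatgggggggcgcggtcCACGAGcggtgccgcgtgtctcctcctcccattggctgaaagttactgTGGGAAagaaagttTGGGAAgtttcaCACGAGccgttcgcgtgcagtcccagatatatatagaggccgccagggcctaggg
NOTCH3: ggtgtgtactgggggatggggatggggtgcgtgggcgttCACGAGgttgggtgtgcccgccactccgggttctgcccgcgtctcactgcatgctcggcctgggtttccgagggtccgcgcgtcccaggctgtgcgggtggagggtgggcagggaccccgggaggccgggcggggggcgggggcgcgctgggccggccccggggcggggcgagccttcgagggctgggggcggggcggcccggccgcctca

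HES1 held TGGGAA at -84 and -70, the first of them within GTGGGAA at -85, and CACNAG at -165, -132 and -58. Among the 8 members with an entry, TGGGAA was found in 2, HES1 and HEYL, against 20.85% of the 35116 RefSeq promoters, and GTGGGAA was found in the same genes, against 5.43%. CACNAG was found in HES1, NOTCH3 (at -211) and NOTCH4 (at -75), against 32.04%. These are matches of letters in a window and say nothing of binding.

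Levels of different genes were compared per length, as RPKM from the gene lengths in the table. NOTCH2 was the most abundant receptor, at 28.9 ± 3.60 RPKM (SD over the 12 libraries, as for the other genes). NOTCH1 followed at 10.6 ± 0.639 RPKM, NOTCH4 at 1.39 ± 0.228 RPKM, and NOTCH3 was lowest at 0.0453 ± 0.0362 RPKM. The order NOTCH2, NOTCH1, NOTCH4, NOTCH3 held in every library and the ranges of neighbours did not overlap: the lowest NOTCH2 value was 20.0 RPKM and the highest NOTCH1 value 11.5 RPKM. Of the summed RPKM of the 4 receptors, NOTCH2 took 63.8% to 74.2% and NOTCH3 0.0317% to 0.282%.

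**Figure D1:**
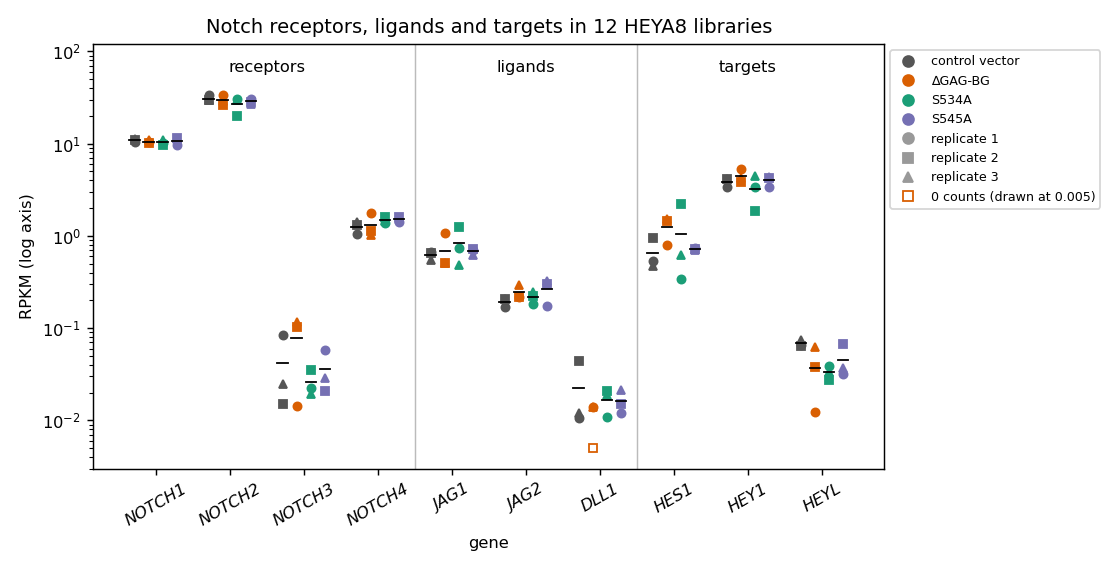
Length-scaled level (RPKM, log axis) of each of the 10 genes in the 12 libraries, one point per library with a bar at the group mean, and an open symbol for 0 counts. NOTCH2 and NOTCH1 lie above all other members in every library, and NOTCH3, DLL1 and HEYL lie lowest.

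JAG1 was the most abundant ligand, at 0.705 ± 0.234 RPKM, with JAG2 at 0.230 ± 0.0503 RPKM. JAG1 took 61.8% to 83.7% of the summed RPKM of the 3 ligands. Among the targets, HEY1 was at 3.89 ± 0.853 RPKM and HES1 at 0.918 ± 0.539 RPKM. The ranges of these last 2 overlapped, since HES1 reached 2.20 RPKM in S534A library 2, the library in which HEY1 was lowest, at 1.84 RPKM.

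NOTCH1, which is widely expressed in epithelia, was the steadiest member. Its levels in libraries 1, 2 and 3 were 101, 95.8 and 109 CPM in S534A, 94.3, 114 and 110 CPM in S545A, 102, 99.9 and 107 CPM in ∆GAG-BG and 104, 109 and 112 CPM in control vector. All 4 groups overlapped, and the highest library was 1.21 times the lowest. Across the 6 comparisons its log2 fold change lay between -0.09 and 0.06, with a standard error of 0.0871 to 0.0872.

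NOTCH2, the main receptor by level, was at 511, 335 and 501 CPM in S534A, 517, 471 and 454 CPM in S545A, 563, 436 and 485 CPM in ∆GAG-BG and 562, 496 and 493 CPM in control vector. The groups overlapped, and S534A library 2 was the lowest of the 12. NOTCH2 has near-identical partial copies elsewhere on chromosome 1. The copy listed as NOTCH2NL had 70 to 151 counts against 8273 to 16273 for NOTCH2. How the counting treated reads shared between them is not given in the sources used here, so the size of the uncertain part of the NOTCH2 value is not known.

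NOTCH3, the receptor best known in ovarian carcinoma, had 3 to 24 counts per library. The counts in libraries 1, 2 and 3 were 6, 10 and 3 in S534A, 14, 4 and 8 in S545A, 3, 21 and 24 in ∆GAG-BG, and 23, 3 and 6 in control vector. On the CPM scale these are 0.213, 0.333 and 0.182 in S534A, 0.542, 0.196 and 0.273 in S545A, 0.136, 0.975 and 1.08 in ∆GAG-BG, and 0.795, 0.141 and 0.235 in control vector. The 3 highest libraries were ∆GAG-BG 2 and 3 and control vector 1, which are the libraries with TGFBR3 at 15.9 to 21.4 CPM, and the remaining libraries of those groups lay between 0.136 and 0.235 CPM. The exact Poisson 95% interval of the 21 counts in ∆GAG-BG library 2 is 13.0 to 32.1. That of the 3 counts in ∆GAG-BG library 1 is 0.619 to 8.77, so the intervals did not overlap. This pair was picked after all libraries were seen, and the intervals make no allowance for that choice.

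NOTCH4, known mainly from endothelium, was lowest in the libraries where NOTCH3 was highest. It was at 13.3, 15.7 and 14.1 CPM in S534A, 13.9, 15.5 and 14.7 CPM in S545A, 17.2, 11.0 and 9.97 CPM in ∆GAG-BG and 10.3, 12.7 and 13.9 CPM in control vector. The 3 lowest libraries were ∆GAG-BG 2 and 3 and control vector 1, and the highest was ∆GAG-BG 1. NOTCH4 shares 1 exon block with GPSM3 on the same strand (298 to 819 counts, against 221 to 470 for NOTCH4), so part of its count could belong to that gene. Whether TGFBR3 level has a part in the NOTCH3 and NOTCH4 differences was not tested.

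**Figure D2:**
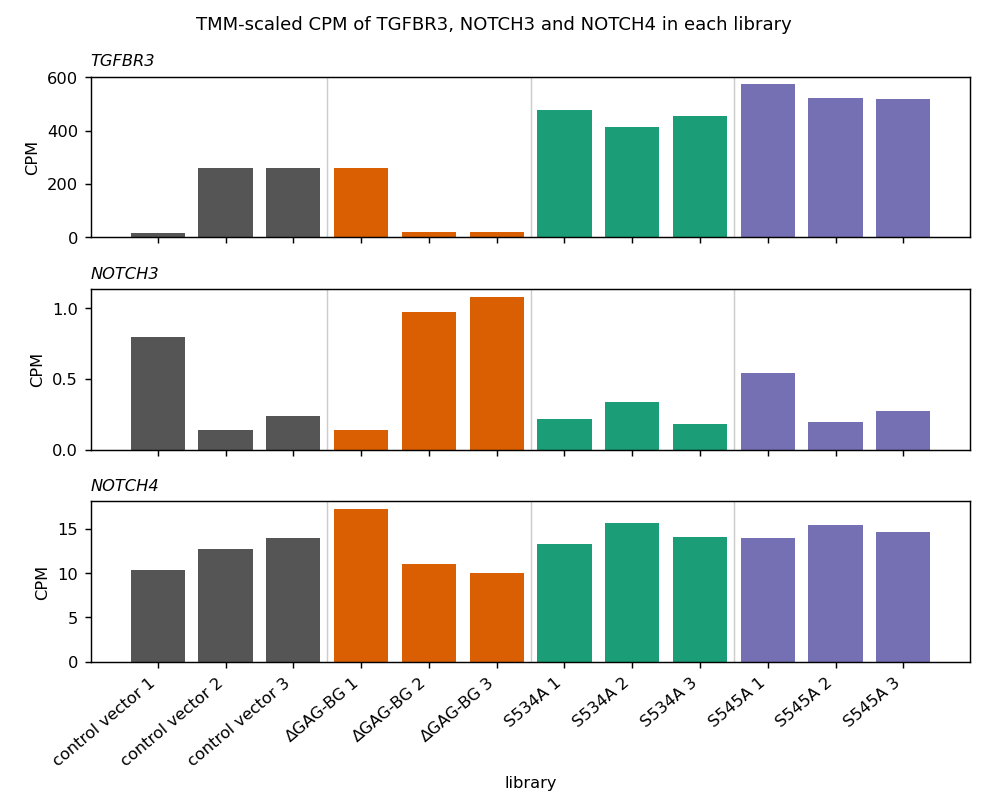
CPM of NOTCH3, NOTCH4 and TGFBR3 in each of the 12 libraries, coloured by labelled group. In ∆GAG-BG libraries 2 and 3 and control vector library 1 TGFBR3 is at 15.9 to 21.4 CPM, NOTCH3 is at 0.795 to 1.08 CPM and NOTCH4 is at 9.97 to 11.0 CPM.

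JAG1, the ligand with the highest level, was at 6.36, 10.7 and 4.12 CPM in S534A, 5.96, 6.22 and 5.26 CPM in S545A, 9.06, 4.36 and 4.29 CPM in ∆GAG-BG and 5.63, 5.56 and 4.62 CPM in control vector. S534A library 2 and ∆GAG-BG library 1 were the highest, and S534A spanned both the lowest and the highest of the 12. An antisense gene, RP11-103J8.1, overlaps 1 exon of JAG1 and had 0 counts. JAG2, which encodes the other Jagged ligand, was at 1.17, 1.43 and 1.58 CPM in S534A, 1.12, 1.91 and 2.05 CPM in S545A, 1.40, 1.39 and 1.89 CPM in ∆GAG-BG and 1.07, 1.32 and 1.33 CPM in control vector. All 3 ∆GAG-BG libraries were above all 3 control vector libraries, while S545A and S534A overlapped both. JAG2 overlaps RP11-44N21.4 on the same strand in 4 exon blocks. That gene had 0 counts, and how reads in the shared stretch were counted is not given, so the JAG2 level could be affected. DLL1, a Delta-like ligand, had 1, 2 and 1 counts in S534A, 1, 1 and 2 in S545A, 1, 0 and 1 in ∆GAG-BG and 1, 3 and 1 in control vector, which is at or below the 3 counts that a library with 0 counts allows, and no fold change is given.

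HES1, the most studied Notch target, was at 0.710, 4.53 and 1.27 CPM in S534A, 1.51, 1.47 and 1.43 CPM in S545A, 1.63, 3.02 and 3.11 CPM in ∆GAG-BG and 1.11, 1.93 and 0.978 CPM in control vector (20 to 136 counts). S534A held both the lowest and the highest library, 6.38-fold apart, and S545A was the tightest group at 1.47 ± 0.0384 CPM. All ∆GAG-BG libraries lay above all S545A libraries, by as little as 1.51 against 1.63 CPM.

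HEY1, a HES-related repressor, was at 11.0, 5.93 and 14.5 CPM in S534A, 10.9, 13.7 and 14.2 CPM in S545A, 17.2, 12.5 and 13.6 CPM in ∆GAG-BG and 10.9, 13.2 and 13.5 CPM in control vector. The groups overlapped, with S534A library 2 lowest and ∆GAG-BG library 1 highest. HEYL, the third of the family named here, had 4, 3 and 2 counts in S534A, 3, 5 and 4 in S545A, 1, 3 and 5 in ∆GAG-BG and 7, 5 and 7 in control vector. The Poisson interval of 7 counts, 2.81 to 14.4, includes all other values except the 1 count of ∆GAG-BG library 1 and the 2 counts of S534A library 3. On the CPM scale the 3 control vector libraries (0.235 to 0.274) lay above the 3 S534A libraries (0.10 to 0.142) and, by little, above the 3 ∆GAG-BG libraries (0.0453 to 0.226). Among the genes tested, groups did not overlap for 7.65% in S534A against control vector and 4.87% in ∆GAG-BG against control vector. HEYL was below the filter and was not tested.

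**Figure D3:**
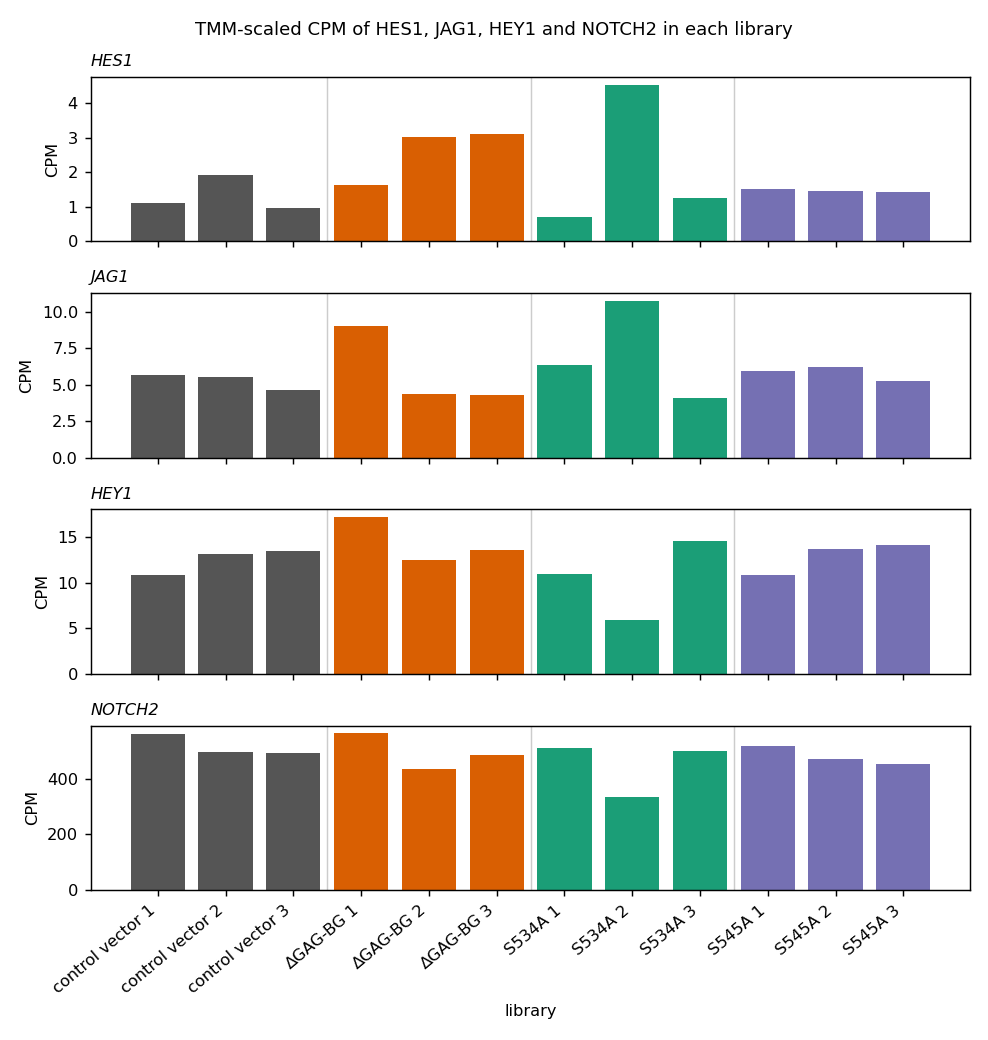
CPM of HES1, JAG1, HEY1 and NOTCH2 in each of the 12 libraries, one bar per library coloured by labelled group. S534A library 2 is the highest of the 12 for HES1 (4.53 CPM) and JAG1 (10.7 CPM) and the lowest for HEY1 (5.93 CPM) and NOTCH2 (335 CPM).

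S534A library 2 was the highest or the lowest of the 12 libraries for 4 of the 8 tested members (50%), against 51.5% of all genes tested. ∆GAG-BG library 1 was so for 4 of 8 (50%), lowest for NOTCH3 and highest for NOTCH2, NOTCH4 and HEY1, against 32.2% of all genes. Fits without single libraries are given where they moved a named value by over 1.5 times or bore on NOTCH3 and NOTCH4.

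In S534A against ∆GAG-BG, 0 of 8 members had an unadjusted p under 0.05, against 2.99% of all genes, and none had groups that did not overlap, against 5.66%. The largest difference was that of NOTCH3, at -1.52 on the log2 scale (standard error 0.731, adjusted p = 0.890, exact permutation p = 0.4). Without ∆GAG-BG library 1, the one with the fewest NOTCH3 reads, it was -2.00 (unadjusted p = 0.00692). NOTCH4 then stood at 0.46 higher in S534A (unadjusted p = 0.00745) and JAG1 at 0.73 higher (unadjusted p = 0.0389), and none passed adjustment. Genes at an unadjusted p under 0.05 in that fit numbered 662 of 16608. JAG1 was at 0.28 with all libraries and at -0.15 without S534A library 2 (unadjusted p = 0.642). HES1 was the member most changed by S534A library 2, without which its log2 fold change was -1.43 (unadjusted p = 0.00350, adjusted p = 0.999) in place of -0.21. Without that library 312 of 16210 genes had an unadjusted p under 0.05. With all libraries, the median log2 fold change was -0.16 over the members, 6 of which were lower in S534A, and -0.0026 over all genes.

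In S545A against ∆GAG-BG, 0 of 8 members had an unadjusted p under 0.05, against 1.1% of all genes, and HES1 alone had groups that did not overlap, against 5.05%. HES1 averaged 1.47 ± 0.0384 CPM in S545A and 2.59 ± 0.829 CPM in ∆GAG-BG, a log2 fold change of -0.81 (standard error 0.553, adjusted p = 1.00). Its exact permutation p was 0.1, the smallest that 3 against 3 libraries allow. Fitted with only these 2 groups, HES1 had a standard error of 0.269 (edgeR, unadjusted p = 0.0178) and did not pass adjustment. In that fit 185 of 15271 genes had an unadjusted p under 0.05. The largest difference was again that of NOTCH3, at -1.08 (standard error 0.694, adjusted p = 1.00, exact permutation p = 0.4), which became -1.57 without ∆GAG-BG library 1 (unadjusted p = 0.0200) and -0.68 without ∆GAG-BG library 3 (unadjusted p = 0.412). NOTCH4 went from 0.21 to 0.49 without ∆GAG-BG library 1 (unadjusted p = 0.00481, adjusted p = 0.731), where 921 of 16608 genes had an unadjusted p under 0.05. The median over the members was -0.03, with 5 of 8 lower in S545A, and that over all genes was -0.01.

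In ∆GAG-BG against control vector, where TGFBR3 goes against the labels most, 0 of 8 members had an unadjusted p under 0.05, against 0.865% of all genes. JAG2 alone had groups that did not overlap, against 4.87% of all genes, with 1.56 ± 0.287 CPM in ∆GAG-BG and 1.24 ± 0.146 CPM in control vector. JAG2 thus stood 0.34 higher on the log2 scale (standard error 0.258, adjusted p = 1.00, exact permutation p = 0.1), and 0.18 higher without ∆GAG-BG library 3. HES1 showed the largest difference, 0.97 (standard error 0.559, adjusted p = 1.00, exact permutation p = 0.2). Fitted with only these 2 groups, its standard error was 0.345 (edgeR, unadjusted p = 0.0248) and it did not pass adjustment. In that fit 124 of 15211 genes had an unadjusted p under 0.05. NOTCH3 stood at 0.83 (standard error 0.673, exact permutation p = 0.4) and NOTCH4 at 0.05 (standard error 0.187, exact permutation p = 1), both chosen after their values were seen. NOTCH3 was at 1.31 without ∆GAG-BG library 1 (unadjusted p = 0.0402) and at 1.90 without control vector library 1 (unadjusted p = 0.0311), but at 0.42 without ∆GAG-BG library 3 and 0.48 without control vector library 2. Genes at an unadjusted p under 0.05 numbered 414 of 16608 without ∆GAG-BG library 1 and 166 of 16268 without control vector library 1. NOTCH4 turned to -0.24 without ∆GAG-BG library 1 and to -0.06 without control vector library 1.

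With libraries 2 and 3 alone, TGFBR3 still goes against the labels, at 20.3 and 21.4 CPM in ∆GAG-BG and 259 CPM in control vector. Fits limited to libraries 2 and 3 of every group leave out library 1, whose TGFBR3 level stood apart in ∆GAG-BG and control vector. In them NOTCH3 stood at -1.88 for S534A against ∆GAG-BG (unadjusted p = 0.00173, adjusted p = 0.604), at -2.07 for S545A against ∆GAG-BG (unadjusted p = 0.00104, adjusted p = 0.130) and at 2.39 for ∆GAG-BG against control vector (unadjusted p = 0.000624, adjusted p = 0.428). NOTCH4 stood at 0.51, 0.52 and -0.35 in the same comparisons (unadjusted p = 0.00279, 0.00230 and 0.0178), so the sign of the last one turned. JAG1 moved as well, to 0.82, 0.40 and -0.24 from 0.28, -0.02 and 0.16, with no unadjusted p under 0.05. No member passed adjustment, each group then held 2 libraries that were nearly alike except in S534A, and the 3 comparisons share the ∆GAG-BG libraries. NOTCH3 and NOTCH4 were singled out after their values were seen, and library 1 held the values that stood apart in ∆GAG-BG and control vector. The p-values of these fits are therefore not separate support for a difference. Of all 15907 genes tested in these fits, 1234, 2009 and 978 had an unadjusted p under 0.05 in the same 3 comparisons. With all libraries these counts were 481, 177 and 139 of 16069.

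In S534A against control vector, 0 of 8 members had an unadjusted p under 0.05, against 3.45% of all genes, and none had groups that did not overlap, against 7.65%. HES1 showed the largest difference, 0.75 (standard error 0.558, adjusted p = 0.871, exact permutation p = 0.8). It rested on S534A library 2, without which it was -0.47 (unadjusted p = 0.264), and was 1.18 without S534A library 1 (unadjusted p = 0.0283, adjusted p = 0.710). Without S534A library 1, 1072 of 16267 genes had an unadjusted p under 0.05. In S545A against control vector, 0 of 8 members had an unadjusted p under 0.05, against 1.05% of all genes, and none had groups that did not overlap, against 8.82%. JAG2 showed the largest difference, 0.45, from 1.69 ± 0.499 against 1.24 ± 0.146 CPM (standard error 0.254, adjusted p = 1.00, exact permutation p = 0.3). It was 0.68 without S545A library 1 (unadjusted p = 0.0128, adjusted p = 0.971), 0.28 without S545A library 3 and 0.58 in libraries 2 and 3 alone (unadjusted p = 0.0360). Of all genes, 429 of 16266 had an unadjusted p under 0.05 without S545A library 1, and 398 of 15907 in libraries 2 and 3 alone. In S545A against S534A, which uses neither group with contradicted labels, 0 of 8 members had an unadjusted p under 0.05, against 4.78% of all genes, and none had groups that did not overlap, against 10.1%. HES1 showed the largest difference, -0.60 (standard error 0.552, adjusted p = 0.741, exact permutation p = 1), which turned to 0.63 without S534A library 2 and was -1.02 without S534A library 1 (unadjusted p = 0.0489, adjusted p = 0.670). Without S534A library 1, 1100 of 16267 genes had an unadjusted p under 0.05 here.

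**Figure D4:**
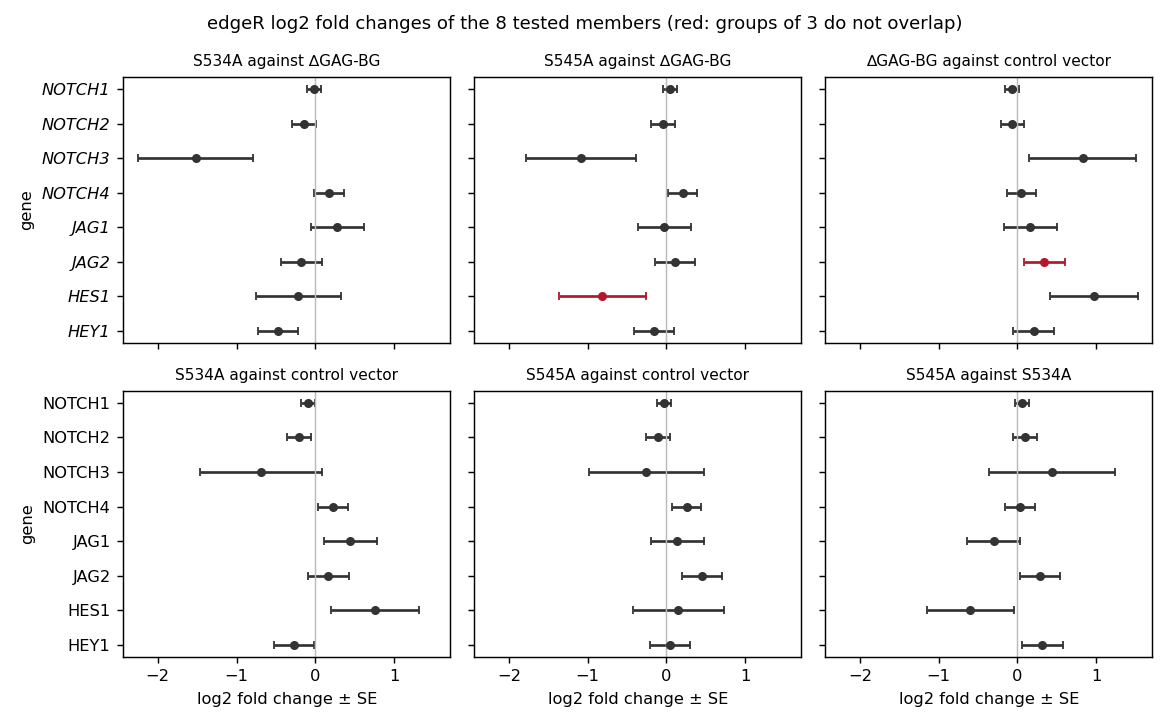
Log2 fold change of the 8 tested members in the 6 comparisons, first group minus second, with bars of 1 standard error from edgeR. NOTCH1 lies within -0.09 and 0.06 in all comparisons, and the widest bars belong to NOTCH3, which has 3 to 24 counts per library.

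The wider pathway was read from a list of 59 genes by role. Of these, 48 passed the filter on low counts, and 0 of 48 had an adjusted p under 0.05 in any comparison, as for all 16069 genes tested (0%). Transcripts for the proteins that cut the receptor and carry its signal were measured at these levels: the proteases ADAM10 and ADAM17 were at 11.6 and 14.5 RPKM on average, the γ-secretase subunits APH1A and NCSTN at 43.4 and 27.2 RPKM, and RBPJ at 28.4 RPKM. All 9 genes of cleavage and all 9 of the nuclear complex passed the filter. Of the 6 other ligands 2 passed, DNER and DLK2, and the endothelial ligand DLL4 had 3 to 15 counts. Among the other targets HES4 was at 2.14 RPKM and NRARP, a feedback inhibitor, at 1.57 RPKM, while HES5 and HEY2 had at most 3 counts.

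At an unadjusted p under 0.05, the pathway list held 2 of 48 genes when S534A was set against ∆GAG-BG, 1 when S545A was set against S534A and 0 in the other 4 comparisons. The first 2 of these counts stand beside 2.99% and 4.78% of all genes. LFNG, the Fringe glycosyltransferase that tunes the choice of ligand, was at 3.02, 7.20 and 1.58 CPM in S534A and 1.45, 1.62 and 1.71 CPM in ∆GAG-BG. The groups overlapped, and its log2 fold change of 1.33 (standard error 0.535, adjusted p = 0.890, unadjusted p = 0.0294) was 0.57 without S534A library 2 (unadjusted p = 0.261). RBPJ was at 257, 190 and 258 CPM in S534A and 320, 278 and 263 CPM in ∆GAG-BG. RBPJ was the 1 gene of the 48 whose groups did not overlap here, against 5.66% of all genes, and its log2 fold change of -0.29 (standard error 0.121, adjusted p = 0.890, unadjusted p = 0.0342) was -0.15 without S534A library 2 (unadjusted p = 0.134). DNER, a non-canonical ligand, was at 7.92, 34.3 and 9.70 CPM in S534A and 9.33, 8.37 and 8.36 CPM in S545A. Its log2 fold change in S545A against S534A was -1.01 (standard error 0.435, adjusted p = 0.702, unadjusted p = 0.0403) and -0.01 without S534A library 2.

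**Figure D5:**
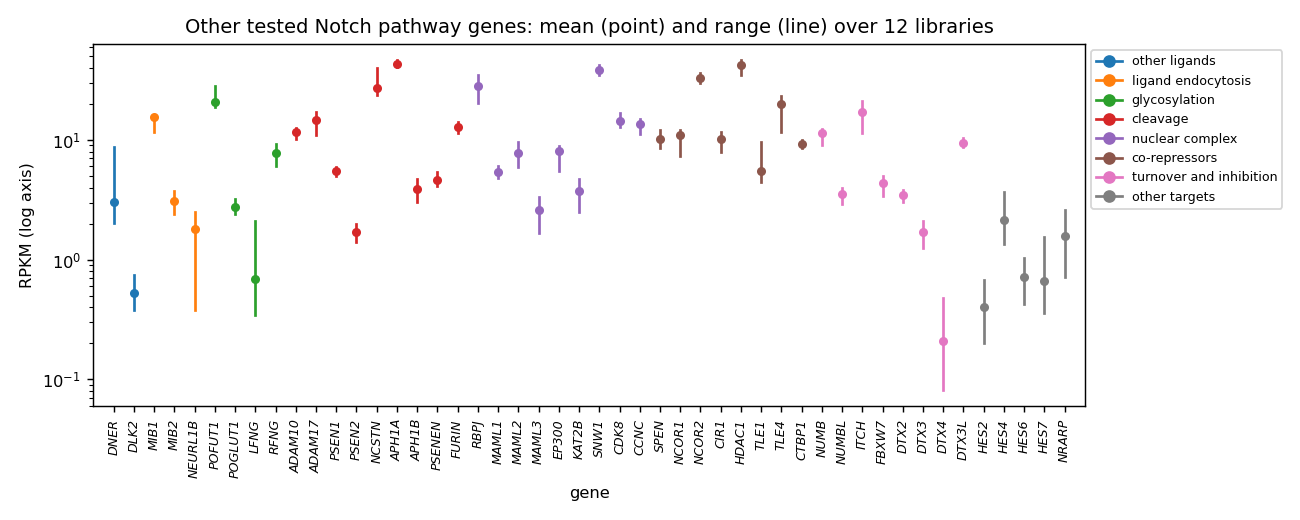
Length-scaled level (RPKM, log axis) of the 48 tested genes of the pathway list, coloured by role. The point is the mean and the line the range over the 12 libraries. APH1A has the highest mean, at 43.4 RPKM, and DTX4 the lowest, at 0.208 RPKM.

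For the most abundant receptor, ligand and target, the genes whose log2(CPM + 1) followed them most closely over the 12 libraries were listed as a description. NOTCH2 was followed by EP400 (Pearson r 0.968), KMT2A (0.964) and PRTG (0.964), JAG1 by JUNB (0.957), KCNAB2 (0.951) and SH3KBP1 (0.951), and HEY1 by DOCK9 (0.964), PTPN4 (0.964) and KDM4A (0.962). S534A library 2 was the lowest of the 12 for the genes listed with NOTCH2 and HEY1 and the highest for those listed with JAG1. Over the 11 libraries without it, r was 0.877 to 0.892 for NOTCH2, 0.908 to 0.928 for JAG1 and 0.850 to 0.880 for HEY1. The libraries are not independent points, since libraries 2 and 3 of 3 groups were nearly alike.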

How the data were processed

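Gene expression was measured by RNA-seq in 12 HEYA8 libraries prepared with a directional kit, 3 in each of 4 groups assigned from the labels (the third S545A library has a title that reads S545S). The authors trimmed, aligned and counted the reads with featureCounts and deposited raw counts per gene, without normalization. The processing notes name Trim Galore 0.4.5, STAR 2.4 and SAMtools 1.2, and name mouse builds, but of 36113 gene symbols shared with GENCODE release 29 (GRCh38), 33648 had the same coordinates (8 of the 10 members). Whether counting used strand is not given in the sources used here. All 37 mitochondrial genes had 0 counts.

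From the counts, genes were kept by filterByExpr (minimum count 10), scaled by TMM and tested by edgeR 4.0.16 (robust quasi-likelihood, R 4.3.3) in 1 model of all 12 libraries, with 8 residual degrees of freedom and a biological coefficient of variation of 0.163. The web tool that the study used for differential expression (bioJupies) was not run. The edgeR test was tested on simulated data. For single values, an exact two-sided permutation test of mean log2(CPM + 1) was run. Intervals and floors cover counting error only. Alternatives were DESeq2 1.42.0, limma-voom (limma 3.58.1), other scalings and filters, only the 2 groups compared, a replicate block, libraries left out, and libraries 2 and 3 summed. Same-numbered libraries deviated together in S545A against control vector alone (correlations 0.732, 0.480 and 0.481), which is known from the data and not the labels. The main edgeR test and the permutation test did not pair them. The replicate block was fitted over all 12 libraries, and no paired test of these 2 groups alone was run. The members and lists were chosen with earlier results of these data known. By rule, all members are named with their CPM. A fold change is given where the unadjusted p was under 0.05 or the groups did not overlap, and for the largest of each comparison. Up to 3 pathway genes per comparison were named at an unadjusted p under 0.05, and the 3 genes most correlated with the top receptor, ligand and target.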

Additional observations from a re-analysis of the deposited data

How the results depend on the processing

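The count of members with an adjusted p under 0.05 was 0 in each of the 6 comparisons under all 16 alternatives, and so was that of the 48 pathway genes. Over all genes tested the count lay between 0 and 5 in every fit, with 5 of 16069 by DESeq2 in S534A against ∆GAG-BG. The counts of 0 therefore do not set the Notch genes apart from other genes. With the replicate block, fitted over all 12 libraries, the count of members also stayed at 0. In S545A against control vector, where same-numbered libraries deviated together, JAG2 then had a log2 fold change of 0.42 (edgeR, unadjusted p = 0.0590). In the other 5 comparisons the correlations of same-numbered libraries ran from -0.31 to 0.54 with at least 1 under 0.1, so the block there carries a number only. The direction turned for NOTCH4 in ∆GAG-BG against control vector (-0.24 without ∆GAG-BG library 1, -0.06 without control vector library 1, -0.35 without library 1 of every group) and, without S534A library 2, for HES1, to -0.47 in S534A against control vector and to 0.63 when S545A was set against S534A. Over all libraries left out in turn, these ran from -0.24 to 0.20 for NOTCH4, from -0.47 to 1.18 for HES1 in S534A against control vector and from -1.02 to 0.63 for HES1 between S545A and S534A. The other fold changes chosen by the rule kept their sign, but JAG1 in S534A against ∆GAG-BG, which the report also gives, turned to -0.15 without S534A library 2. With 1 library left out, NOTCH3 ran from -2.00 to -1.12 in S534A against ∆GAG-BG, from -1.58 to -0.68 in S545A against ∆GAG-BG and from 0.42 to 1.90 in ∆GAG-BG against control vector, and JAG2 from 0.18 to 0.41 in ∆GAG-BG and from 0.28 to 0.68 in S545A, each against control vector. Members at an unadjusted p under 0.05 numbered 0 in every comparison by DESeq2, where 75 to 744 of 16069 genes passed. By limma-voom they numbered 0 or 1, the 1 in S534A against ∆GAG-BG, where 513 of 16069 genes passed. The highest count under any alternative was 3 of 8, in S534A against ∆GAG-BG without ∆GAG-BG library 1. In that fit 662 of 16608 genes passed. With the filter of at least 10 counts in every library, NOTCH3 gave no value. The fits limited to libraries 2 and 3 assume that these libraries vary as separate samples would. The 3 to 24 counts of NOTCH3 limit what could be seen of it.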
